A study of Mus musculus with 28 samples.

Results

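The genes that make, package, take up and break down GABA, the main inhibitory transmitter of the brain, were followed here in the RNA of 28 single mouse brain cells. 5 genes were chosen by name from the deposited exon and intron count tables: Gad1, Gad2, Slc32a1, Slc6a11 and Abat. All 5 were listed among the 23453 genes of the exon table and the 20422 genes of the intron table. The sample labels name 12 neurons and 8 astrocytes from primary cultures of C57/BL6 mouse cortex, each collected with a pipette, and 8 interneurons drawn into a patch clamp pipette from acute slices of C57/BL6/N prefrontal cortex. For the cultured cells the labels give a male mouse of 3 months perfused with fixative, whereas the study describes cultures of embryonic brain cells, so the age of their source is uncertain. For the slice cells no age is given. No label ties a cell to an animal or a culture dish, so how many of either stand behind the 28 cells is unknown.

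Each column is headed by a code, and the codes occur in no label. They fall by name into 3 runs: BRP564 and BRP566 to BRP572 (8 cells), 12 codes between BRP528 and BRP543, and 8 codes that begin with F. The runs have the same sizes as the labelled astrocytes, neurons and interneurons, but no source used here pairs a code with a cell type. The cells are therefore described by code and run, no cell type is assigned, and no test between runs was made.

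GABA is made from glutamate by glutamic acid decarboxylase, which exists as the Gad1 product GAD67, found through the cell, and the Gad2 product GAD65, found mainly at nerve endings. The vesicular transporter VGAT, encoded by Slc32a1, loads GABA into synaptic vesicles. After release, GABA is cleared by plasma membrane transporters, among them GAT3 (Slc6a11), which is known mostly from astrocytes. GABA transaminase, encoded by Abat, then breaks GABA down in mitochondria of neurons and glia.

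Exonic counts per cell were 12969692 to 19798892 in the BRP564 to BRP572 run (median 16342310.5), 17483754 to 26770944 in the BRP528 to BRP543 run (median 21155595) and 838343 to 14831505 in the F run (median 4963187.5). Levels are given as CPM, the exonic counts of a gene per 1000000 exonic counts of its cell. A cell is said to hold a gene when the gene reached 10 CPM. The intronic share of all counts also differed, with medians of 8.75%, 15.7% and 50.4% in the 3 runs, and it was lowest in F1 (5.31%) within the F run. In the same order, the summed level of 8 pan-neuronal markers had medians of 565.0, 7953.6 and 3317.3 CPM. That of 9 astrocyte markers had medians of 3632.6, 988.0 and 699.7 CPM, and that of 6 glutamatergic markers had medians of 0.302, 600.4 and 2.19 CPM. The 11 interneuron markers that are not among the 5 genes summed to medians of 127.0, 7.56 and 157.4 CPM. Markers of the oligodendrocyte lineage summed to medians of 936.0, 26.3 and 0.842 CPM, those of microglia to 2.51, 0.0655 and 2.46 CPM, and those of endothelium to at most 19.7 CPM in any cell. In the F run Aldh1l1 and S100b were at 0 in all cells and Gfap and Aqp4 at most 1.38 CPM, while single markers of other cells were high in F7 (Slc1a2 at 4349.6 CPM and Olig1 at 3210.4 CPM), F11 and F12 (Sox9 at 1063.2 and 1179.9 CPM) and F16 (Csf1r at 2093.4 CPM). F1 (Slc1a2 at 637.1 CPM and Aldoc at 204.8 CPM), F2 (Gja1 at 182.6 CPM) and F24 (Aldoc at 556.1 CPM and Csf1r at 46.3 CPM) also had such markers. F6, with an astrocyte sum of 4.23 CPM, had no astrocyte marker at 10 CPM. The part of these in the levels below was not tested.

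Gad1 and Gad2 both lie on the + strand of chromosome 2, at chr2:70553072-70602014 and chr2:22622205-22693874 (mm10), far apart. Their upstream sequences are shown because the 2 genes encode the same enzyme activity and yet were often detected in different cells. Each stretch begins 250 bases before the RefSeq start and stops just before the annotated exon that follows it. The Gad1 stretch (chr2:70561879-70562041, 163 bases) lies inside the span of longer annotated Gad1 transcripts, and the Gad2 stretch (chr2:22622077-22622204, 128 bases) lies just before the gene. Capitals mark the motifs that were found among 5 that were searched on both strands.
Gad1: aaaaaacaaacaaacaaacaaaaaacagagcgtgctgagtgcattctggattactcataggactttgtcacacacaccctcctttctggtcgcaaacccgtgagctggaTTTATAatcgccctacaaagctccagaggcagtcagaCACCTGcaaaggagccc
Gad2: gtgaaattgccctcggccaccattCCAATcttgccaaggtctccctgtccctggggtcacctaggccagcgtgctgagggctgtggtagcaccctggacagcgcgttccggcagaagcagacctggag
The Gad1 stretch holds TATAAA, written here as TTTATA because it reads on the other strand, and the E-box CACCTG. In windows of the same length and place across 32851 promoters, 7.78% held TATAAA and 11.8% held CACCTG. The Gad2 stretch holds CCAAT, as did 17.2% of windows of its length. Neither stretch holds GGGCGG or the homeobox core TAATTA. Over these 5 motifs the stretches shared none. Each motif occurred in at most 21.9% of windows of either length, so sharing none is no mark of these 2 genes. Its bearing on the cells that held them was not tested. Such matches describe letters and not binding.

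Gad1 was held by 8 of 28 cells (28.6%, 95% exact binomial interval 13.2 to 48.7), 7 of them in the F run. In that run Gad1 was 8713.4 CPM in F6, 5142.5 in F1, 4820.2 in F16, 3151.2 in F24, 2357.3 in F2, 1092.2 in F7, 18.9 in F11 and 0.739 in F12. The lowest of these rest on few reads, 83 in F11 and 2 in F12. In the BRP528 to BRP543 run, BRP528 stood at 1136.0 CPM with 22808 counts, and the other 11 cells held 9 counts between them, with a highest level of 0.204 CPM. The BRP564 to BRP572 run lay between, at 0 to 9.61 CPM (median 1.13). BRP572, with 177 counts, was just under the limit of 10 CPM. None of the 8 cells that hold Gad1 overlapped its neighbour in the order of levels by the 95% Poisson intervals, which cover counting error only. F6 alone gave 44.1% of the 237741 Gad1 counts. The order within the F run depended on the scaling. With edgeR's TMM factors F16 (12128.0 CPM) lay above F6 (11778.5 CPM), and with DESeq2 size factors F16 was at 76066.2 CPM and F6 at 14425.4 CPM. F11 moved most under TMM, to 235.6 CPM. The same 8 cells held Gad1 under all 3 scalings.

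**Figure D1:**
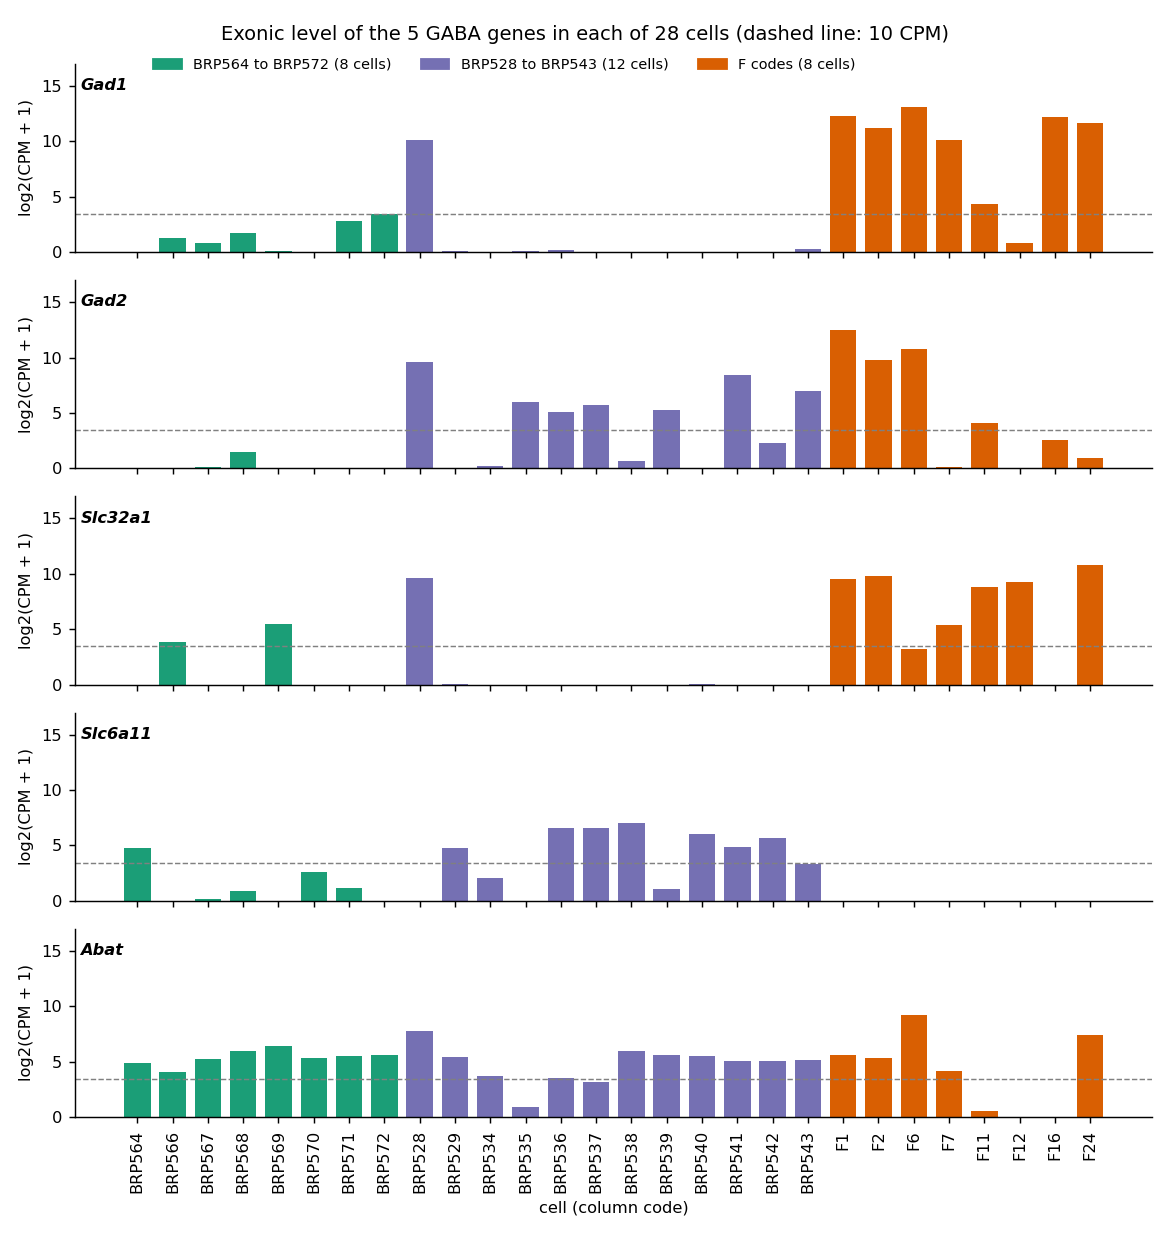
Exonic level of Gad1, Gad2, Slc32a1, Slc6a11 and Abat in each of 28 cells, as log2(CPM + 1), with a bar per cell coloured by run of column codes and a dashed line at 10 CPM. Gad1 and Slc32a1 stand high in BRP528 and most F cells, Slc6a11 is at 0 in all 8 F cells, and Abat reaches 10 CPM in 23 of 28 cells.

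Gad2 was held by 11 of 28 cells (39.3%, interval 21.5 to 59.4) and was spread otherwise than Gad1. In the F run it was high in F1 (5801.4 CPM), F6 (1729.7 CPM) and F2 (889.5 CPM) and low in F11 (15.7 CPM). It was 4.77 CPM in F16, 0.945 CPM in F24 and 0.115 CPM in F7, on 4, 2 and 1 counts, and 0 in F12. In F16, F24 and F7 the Gad1 level was at least 1092.2 CPM. Under TMM and DESeq2 scaling F16 passed the limit for Gad2, at 12 and 75.3 CPM on its 4 counts. In the BRP528 to BRP543 run, 7 of 12 cells held Gad2: BRP528 at 780.5 CPM, BRP541 at 340.1, BRP543 at 128.0, BRP535 at 64.3, BRP537 at 51.6, BRP539 at 38.6 and BRP536 at 33.9. In the remaining 5 cells of that run Gad2 was at most 3.94 CPM. In the BRP564 to BRP572 run it was at most 1.7 CPM, with 28 of the run's 30 counts in BRP568. Among the 11 cells in order of level, BRP539 and BRP536 were the single neighbouring pair whose counting intervals overlapped.

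Levels of the 2 decarboxylase genes were compared per kb of merged exon, 7.64 kb for Gad1 and 5.88 kb for Gad2. Over the 14 cells that held either gene, the Gad1 share of the summed level per kb had a median of 44.3%, a value near which few cells lay. It was under 1% in 6 cells, BRP535, BRP536, BRP537, BRP539, BRP541 and BRP543. It was over 99% in F7, F16 and F24. Between these lay F6 at 79.5%, F2 at 67.1%, BRP528 at 52.8%, F11 at 48.1% and F1 at 40.5%. Without the 6 cells of lowest exonic total (F2, F7, F11, F12, F16 and F24, at most 8691638 counts) the median share was 0.123% over 9 cells, and without F7, F11, F12 and F16 it was 0.306% over 11 cells. The plot of Gad1 against Gad2 shows these cells along each axis and on the diagonal.

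**Figure D2:**
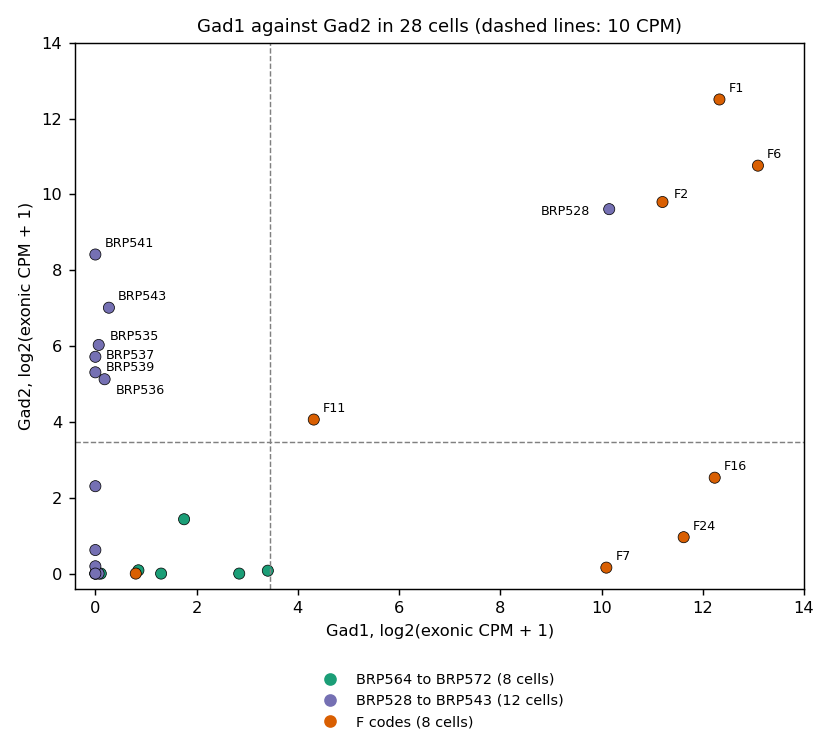
Exonic level of Gad1 (x axis) against Gad2 (y axis) in 28 cells, both as log2(CPM + 1), with a point per cell coloured by run and dashed lines at 10 CPM. 6 cells of the BRP528 to BRP543 run sit along the Gad2 axis, F7, F16 and F24 sit along the Gad1 axis, and BRP528, F1, F2, F6 and F11 lie above both lines.

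The vesicular transporter gene Slc32a1 (chr2:158610767-158615748, + strand) was held by 9 of 28 cells (32.1%, interval 15.9 to 52.4). In the F run it was 1813.5 CPM in F24, 867.1 in F2, 727.4 in F1, 617.6 in F12, 443.5 in F11, 41.9 in F7, 8.39 in F6 and 0 in F16. F6 thus fell just under the limit, which it passed with TMM (11.3 CPM) and DESeq2 scaling (13.9 CPM). F11 became the highest cell under TMM, at 5527.7 CPM, and F24 stayed highest under DESeq2 scaling. F12, with 2 Gad1 counts and 0 Gad2 counts, had 1672 counts of Slc32a1. BRP528 had 797.5 CPM, and in the other 11 cells of its run 2 counts were found in all. In the BRP564 to BRP572 run, BRP569 had 42.6 CPM (552 counts) and BRP566 had 13.1 CPM (206 counts), while the other 6 cells had 0 counts. With TMM scaling BRP566 fell to 8.84 CPM, under the limit. In BRP566 and BRP569 Gad1 was 1.46 and 0.0771 CPM and Gad2 was 0. BRP566 also had a glutamatergic marker sum of 144.1 CPM, the highest of its run.

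Synthesis and packaging genes were held together by few cells. Gad1, Gad2 and Slc32a1 were all at 10 CPM or more in 4 of 28 cells: BRP528, F1, F2 and F11. F7 and F24 held Gad1 with Slc32a1, F6 held Gad1 with Gad2, and F16 held Gad1 alone. Slc32a1 alone was held by BRP566, BRP569 and F12. Gad2 alone was held by 6 cells, all of the BRP528 to BRP543 run, and 11 cells held none of the 3 genes. With a limit of 1 CPM, or with TMM or DESeq2 scaling, the number holding all 3 was 5, and with 100 CPM it was 3. Without the 6 shallowest cells it was 2 of 22.

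The 6 cells with Gad2 alone also carried transcripts of vesicular glutamate transporters. Slc17a6, which encodes VGLUT2, was 169.9 to 732.5 CPM in them (median 288.8), and Slc17a7, which encodes VGLUT1, was 19.6 to 94.8 CPM (median 37.2). In the 5 cells of the same run that held none of the 3 GABA genes, Slc17a6 was 69.1 to 1012.3 CPM (median 86.5) and Slc17a7 4.07 to 40.5 CPM (median 19.9). Both medians were higher in the 6 cells with Gad2, and the ranges of the 2 sets of cells overlap for both genes. The summed interneuron markers in the 6 cells were 0.047 to 9.8 CPM, apart from 92.4 CPM in BRP541, which also had an oligodendrocyte lineage sum of 974.4 CPM. In the 4 cells that held all 3 GABA genes, Slc17a6 was at most 0.228 CPM and Slc17a7 at most 4.92 CPM.

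BRP528 had the highest Gad1, Gad2, Slc32a1 and Abat of its run and also differed from it in markers. Its glutamatergic marker sum was 0.598 CPM against 276.6 to 1139.1 CPM in the other 11 cells, and its interneuron marker sum was 2146.4 CPM against 0 to 92.4 CPM. 7 of the 11 interneuron markers reached 10 CPM in it. It also had an astrocyte marker sum of 1785.6 CPM, with 8 of 9 markers at 10 CPM or more, and an oligodendrocyte lineage sum of 742.4 CPM. BRP529 had an astrocyte marker sum of 2152.5 CPM, with 8 of 9 markers at 10 CPM or more. Its oligodendrocyte lineage sum was 1260.6 CPM and its glutamatergic sum 361.8 CPM. In BRP529 there was 1 count each of Gad1 and Slc32a1 and 0 of Gad2. The part of other cells' RNA in these values was not tested. BRP528 was the only cell of its run that held Gad1 or Slc32a1, 1 of 12 cells for each (8.33%, exact binomial interval 0.211 to 38.5). It was singled out for these values, so that the other 11 cells held neither gene follows from that choice.

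The uptake transporter gene Slc6a11 (chr6:114131241-114249952, + strand) was held by 8 of 28 cells (28.6%, interval 13.2 to 48.7), of which 7 belong to the BRP528 to BRP543 run. There it was 129.4 CPM in BRP538, 95.7 in BRP537, 93.8 in BRP536, 65.5 in BRP540, 50.4 in BRP542, 27.4 in BRP541 and 26.6 in BRP529. BRP543 came next at 8.78 CPM, and BRP528 and BRP535 had 0 counts. In the BRP564 to BRP572 run, in which the summed astrocyte markers were highest, BRP564 had 26.6 CPM and the other 7 cells 0 to 5.15 CPM. In the F run it had 0 counts of 51154906, which allows a level of up to 0.0586 CPM over the run, and from 0.202 CPM in F1 to 3.58 CPM in F16 for single cells (3 counts of the total). These floors lie under the limit of 10 CPM, and so under every cell that held the gene, on the CPM scale only. With DESeq2 size factors the levels of F16 are 15.8 times their CPM, and its floor rises alike. Among the 8 cells that held Slc6a11, its level ranged 4.87-fold from lowest to highest. The range was 460.9-fold for Gad1 and 369.1-fold for Gad2 among the cells that held them, and the limit of 10 CPM cuts all 3 ranges from below. 3 of the 7 neighbouring pairs overlapped by their counting intervals, among them BRP541 with BRP564 and BRP564 with BRP529.

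Abat (chr16:8513429-8621568, + strand) was the most widely detected of the 5 genes, with at least 1 count in 26 of 28 cells and 10 CPM in 23 (82.1%, interval 63.1 to 93.9). Its median over all cells was 38.2 CPM (interval 16.5 to 46.5). In the BRP564 to BRP572 run it was 15.9 to 84.3 CPM (median 41.6) in all 8 cells. In the BRP528 to BRP543 run it was 0.846 to 217.0 CPM (median 34.2), with BRP528 highest and BRP535 lowest. The first range lies within the second. The F run was the most uneven, with 582.0 CPM in F6, 166.8 in F24, 48.9 in F1, 39.6 in F2, 16.5 in F7, 0.456 in F11 and 0 in F12 and F16. F6 gave 82.9% of the run's Abat counts. In F16, with 838343 exonic counts, a count of 0 allows up to 3.58 CPM. In the order of levels 16 of 22 neighbouring pairs of cells overlapped by counting intervals, against 0 of 7 for Gad1.

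Intronic counts separated the 5 genes. Gad1, with 41.3 kb of intron, and Slc32a1, with 2.19 kb, were listed at 0 intronic counts in all 28 cells, in spite of 237741 and 40283 exonic counts. Of 6377 genes in both tables with at least 10000 exonic counts over the cells, 603 (9.46%) likewise had 0 intronic counts in every cell. An annotated antisense gene overlaps a part of each of the 2 genes, Gad1os at Gad1 and Gm14205 at Slc32a1. Gad1os ends at chr2:70563357, while Gad1 runs to chr2:70602014, and Gm14205 spans chr2:158610910-158611820. Gad2 and Abat have no such antisense gene in the annotation used here, and Slc6a11 has a pseudogene on its opposite strand. The effect of these overlaps on the counting was not tested.

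Gad2 had intronic counts in all 28 cells, 6216 in total, with a median of 7 per cell. Most lay in F2 (3933 counts) and F7 (1708 counts). In F2 the intronic counts stood beside 4924 exonic counts. In F7 they stood beside a single exonic count, so that 99.9% of the Gad2 counts of that cell were intronic. BRP569 was alike, with 275 intronic and 0 exonic counts, and BRP567 had 83 intronic counts and 1 exonic count. In F1 and F6, which had the highest exonic levels, the intronic share of Gad2 was 0.0395% and 0.0096%. F2, with the most intronic counts, was also 3rd in exonic level. F7, BRP569 and BRP567, next in intronic counts, had at most 1 exonic count each.

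Slc6a11, whose introns span 113.7 kb, had 9019 intronic counts in 22 cells, of which BRP529 held 5278 and BRP542 held 1560. In BRP529 they were 89.9% of the gene's counts and in BRP542 60.1%. BRP536 and BRP537, close to each other in exonic level, were also close in intronic share (24.9% and 24.8%). In BRP538, the highest in exonic level, 8 intronic counts made up 0.276%. In the F run 10 intronic counts were found in 4 cells, at most 5 in F11. Abat had intronic counts in every cell, 1908 in total, with a median share of 3.7% over the 27 cells with at least 10 counts of either kind. F11 and F12, with 2 and 0 exonic counts, had 84 and 72 intronic ones.

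**Figure D3:**
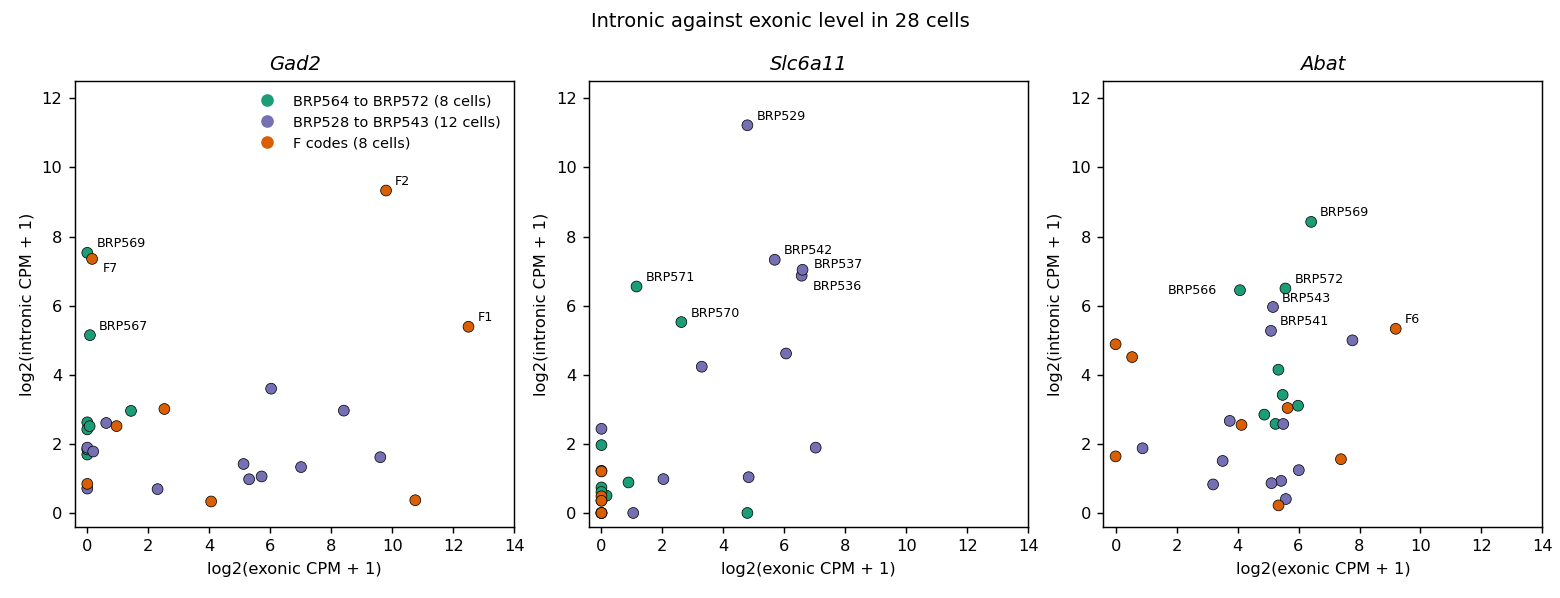
Intronic level (y axis, log2 of intronic CPM + 1, scaled by the intronic counts of the cell) against exonic level (x axis, log2 of exonic CPM + 1) of Gad2, Slc6a11 and Abat in 28 cells, with a point per cell coloured by run. For Gad2, F7, BRP569 and BRP567 lie near 0 on the exonic axis, and for Slc6a11 BRP529 lies far above all other cells.

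Across the 28 cells, Spearman's rho between Gad1 and Slc6a11 was -0.783. It stayed between -0.812 and -0.768 when each cell was left out in turn. It was -0.784 with TMM and -0.801 with DESeq2 scaling. It left that range with intronic counts added (-0.756), with cells thinned to the same exonic total (-0.703) and without the shallowest cells (-0.723). Pearson's r of the log2 levels was -0.558. Among the 20 BRP cells rho was -0.664. Gad1 had a count in 11 of these cells. In all of them but BRP528 it was at most 9.61 CPM, so the BRP ranks of Gad1 mostly order low levels. The BRP cells join the BRP564 to BRP572 run with the BRP528 to BRP543 run. In that order, Gad1 had medians of 1.13 and 0 CPM and Slc6a11 had medians of 0.486 and 27 CPM. No rho was computed within a single BRP run. How far the BRP values here and below reflect differences between these runs was not tested. In the F run the rho of Gad1 and Slc6a11 could not be computed, since Slc6a11 was 0 throughout. Slc32a1 and Slc6a11 had a rho of -0.62 over all cells and -0.337 among the BRP cells. Gad1 and Slc32a1 had 0.58 over all cells, but 0.274 among the BRP cells and -0.19 within the F run. Gad1 and Gad2 had 0.328 over all cells, 0.0177 among the BRP cells and 0.714 among the 8 F cells. These are descriptions over cells whose depth differs between and within the runs. Abat had a rho between -0.0808 and 0.261 with each of the other genes over all cells, but 0.659 with Gad1 and 0.563 with Gad2 within the F run, and 0.387 with Slc32a1 among the BRP cells. Without F7, F11, F12 and F16 it was 0.494 with Gad1, 0.524 with Slc32a1 and -0.403 with Slc6a11.

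Genes most like each of the 5 were taken as the 3 with the highest rho over the 28 cells, among genes with a count in at least 10 cells. For Gad1 they included Kcnc2 (0.695), which encodes a potassium channel of fast spiking neurons, and Cacna2d2 (0.644), a calcium channel subunit. Within the BRP and the F cells these were 0.319 and 0.548 for Kcnc2 and 0.654 and 0.024 for Cacna2d2. For Slc32a1 they included the transcription factor gene Tcf4 (0.736) and Nxph1 (0.597), which encodes a neurexin ligand. Tcf4 had 0.415 among the BRP and 0.357 among the F cells, and Nxph1 had 0.369 and 0.805. For Gad2 they included Slc24a2 (0.762), a sodium, calcium and potassium exchanger, and Nrsn1 (0.757), with 0.721 and 0.747 among the BRP and 0.755 and 0.913 among the F cells. For Slc6a11 they were Rltpr (0.871), Psph (0.851), the last enzyme of serine synthesis, and Zfp101 (0.85), which had 0.861, 0.764 and 0.858 among the BRP cells. For Abat they were Vstm2b (0.801), Pik3ip1 (0.613) and Epn1 (0.59), which had 0.694, 0.468 and 0.271 among the BRP and 0.919, 0.737 and 0.884 among the F cells. Several of the matched genes were low in most cells. Median levels were 0.0884 CPM for Rltpr, 0.0249 for Zfp101, 0.051 for Cacna2d2, 0 for Nxph1 and 0.277 for Vstm2b. Those of Tcf4 and Psph were 475.6 and 41.5 CPM. Where the median is near 0, rho rests in part on cells tied at 0 or with few counts. No gene was shared by the lists of Gad1 and Gad2. Each list holds only 3 of 12148 ranked genes, so sharing none does not set Gad1 and Gad2 apart.

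A list of 23 genes of GABA synthesis, transport and breakdown was read in the same cells. 10 of 23 (43.5%) reached 10 CPM in at least 14 cells, against 5589 of 23453 genes of the table (23.8%), and the list's median of gene medians was 2.7 CPM against 0 over all genes. Of the 5 genes described above, Abat alone did so. The GABA transporter genes Slc6a12 and Slc6a13 had 1 count each over all cells. Slc6a6, the taurine transporter, was held by all 20 BRP cells (84.7 to 642.3 CPM) and by 3 of 8 F cells.

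Genes of glutamine and glutamate handling were spread otherwise than the decarboxylases. Glul, which makes glutamine from glutamate, was 162.1 to 337.1 CPM in the BRP564 to BRP572 run, 15.4 to 757.1 CPM in the BRP528 to BRP543 run and 0 to 1274.8 CPM in the F run. Slc38a3, a glutamine transporter of astrocytes, was held by all 8 cells of the BRP564 to BRP572 run (21.8 to 100.2 CPM) and by no other cell. Slc38a1 and Slc38a2, glutamine transporters of neurons and other cells, were held by 22 and 20 cells. Slc1a1, a neuronal glutamate transporter, was held by all 12 cells of the BRP528 to BRP543 run, by 2 of 8 in the BRP564 to BRP572 run and by 3 of 8 F cells. Gls2 reached 10 CPM in 1 cell and Slc38a5 in none.

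Downstream of Abat, Aldh5a1, which oxidises succinic semialdehyde, was held by 18 of 28 cells, among them 6 of 8 in the BRP564 to BRP572 run, 10 of 12 in the BRP528 to BRP543 run and 2 of 8 in the F run. In F1, F2 and F24, which held Abat, Aldh5a1 had 0 counts, while F6 had 368.4 CPM. Genes of the route from putrescine to GABA were held by fewer cells in all. Odc1, which makes putrescine, was held by all 8 cells of the BRP564 to BRP572 run (21.1 to 79.2 CPM) and 4 of the next run, Aldh9a1 by 10 BRP cells, and Maob by none, with a highest level of 7.19 CPM. Pdxk, which makes pyridoxal phosphate, the cofactor of both decarboxylases and of the transaminase, was held by 21 cells.

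**Figure D4:**
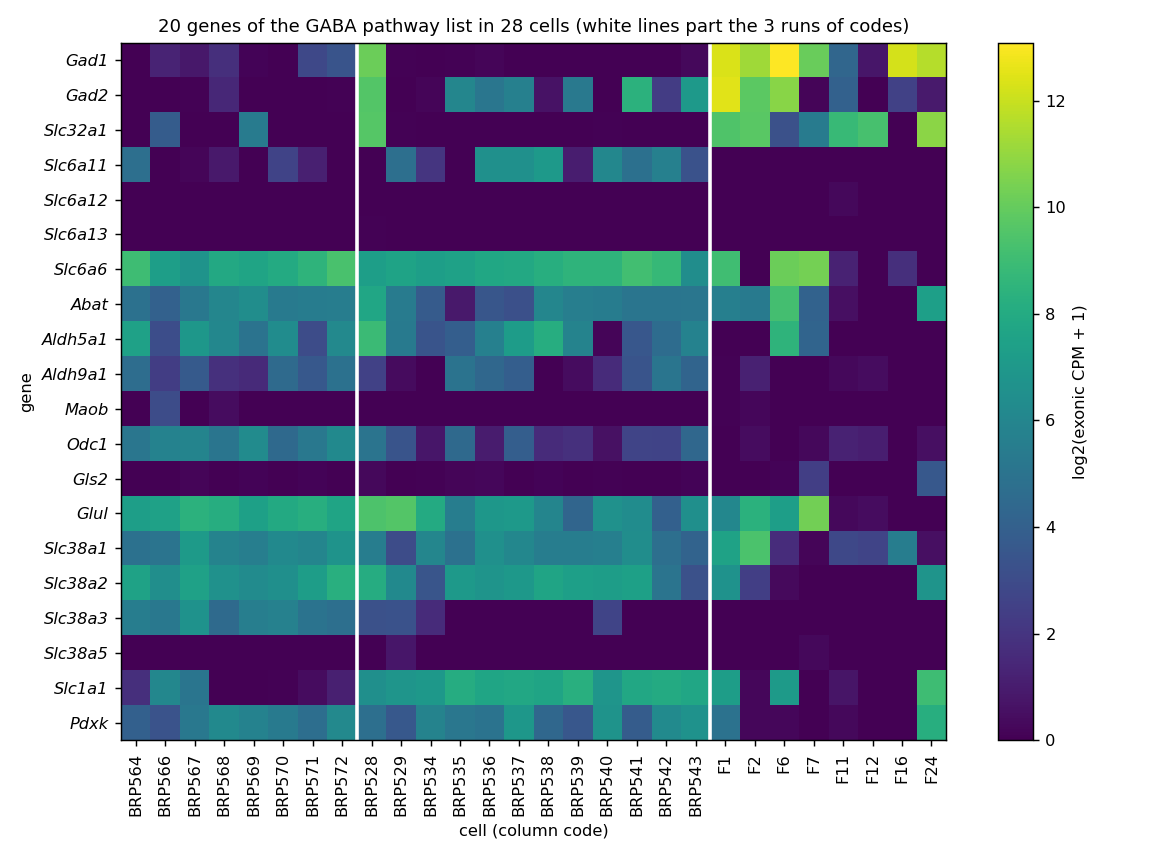
Exonic level of 20 genes of the GABA pathway list (rows) in 28 cells (columns), as log2(CPM + 1) on a colour scale from dark (0) to yellow, with white lines between the 3 runs of codes. Slc1a1 is high across the BRP528 to BRP543 run, Slc38a3 reaches 10 CPM in the BRP564 to BRP572 run, and Slc6a12 and Slc6a13 have 1 count each.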

How the data were processed

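RNA of 28 single mouse cells was measured. The authors deposited exonic and intronic counts per gene and cell, as whole numbers without normalization. The submitters' processing notes name bcl2fastq 2.17, STAR 2.4.0 and mm10, with no role given. The counting tool, annotation and strand setting are not given in the sources used here. The labels give a TruSeq Nano DNA kit and NextSeq 500 for cultured cells and a TruSeq Stranded kit and HiSeq 2500 for slice cells. None of the 28 columns matched a sample, so all were treated as cells of unknown label, no column was set aside, and no test between groups, p-value or paired analysis was made.

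Exonic counts were divided by each cell's exonic total (CPM) and intronic counts by its intronic total. Shares of cells carry exact binomial, single levels exact Poisson and medians order statistic 95% intervals, which cover counting or sampling error only. A count of 0 allows 3 counts of the total. An intronic share needed 10 counts. Levels between genes were compared per kb of merged exon of GENCODE M21, which uses the mm10 assembly. Promoter sequences came from RefSeq (GRCm38.p6) and matched 4 of 5 genes. No pair of cells was alike within sampling noise.

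The 5 genes and all lists were chosen with earlier results of these data known. The named genes are the 5, the GABA pathway list, the cell type markers and, for each of the 5, the 3 genes with the highest rho. Some genes of these lists are not reported here, though list counts include them. Alternatives were edgeR 4.0.16 TMM and DESeq2 1.42.0 size factors, intronic counts added, thinning to 830000 exonic counts, other limits, and fewer cells. The steps ran in Python 3.11.15 (pandas 2.3.3, scipy 1.17.1) and R 4.3.3. Of them, only the ranking of genes by rho was tested on simulated data.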

Additional observations from a re-analysis of the deposited data

Results flagged for a closer look

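Within the 8 cells of the BRP564 to BRP572 run, Gad2 was 1.7 CPM in BRP568 (28 counts) and at most 0.0617 CPM in the other 7, a gap of 0.94 of the whole range on the log2(CPM + 1) scale by Dixon's criterion. Of 9 series of values examined in this way 1 stood out. Chance alone marks about 1 in 20 where values follow a normal curve, which a series made mostly of 0 or 1 counts does not. Only runs of 8 cells were examined, so the BRP528 to BRP543 run was left out. BRP568 also had 8 intronic Gad2 counts, beside 4 to 275 in the other cells of that run, and Gad1 at 2.37 CPM.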

How the results depend on the processing

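Of 139 alternative values of cell counts, medians and the Gad1 share, 131 stayed within the interval of the reported value. Many of these intervals are wide, so this is a weak check. That of the Gad1 median (0.471 CPM) runs from 0 to 9.61 CPM. A Gad1 share of 0.123% also counted as within the interval of the reported 44.3%. With at least 10 counts in place of 1, Gad1 was detected in 13 cells and Gad2 in 14, and with every cell thinned to 830000 exonic counts Gad1 was detected in 12. Abat was detected in 22 of 22 cells without the 6 cells of lowest exonic total and in 24 of 24 without F7, F11, F12 and F16, as those settings leave out the cells at 0. With a limit of 100 CPM, Gad2 was held by 6 cells, Slc6a11 by 1 and Abat by 3. Cells holding Gad1, Gad2 and Slc32a1 numbered 2 to 5. Of 106 alternative correlations, 48 left the range given by leaving out single cells and 7 changed sign, among them Gad1 with Slc32a1 in the F run (-0.19). The cause was not tested. Leaving out BRP528, F1, or F7, F11, F12 and F16, and taking BRP or F cells alone, were chosen after seeing the data. Depth limits the F run most, since 3 counts were worth up to 3.58 CPM there. No paired analysis was possible because the columns carry no replicate number.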
